A study of Drosophila melanogaster with 3 samples.

Results

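The vacuolar ATPase genes described here are the 33 protein-coding genes of the Ensembl dm6 annotation whose symbol begins with Vha, out of 13945 protein-coding genes on the 6 main chromosome arms. The rule for members used names and no binding value, but the family was chosen with earlier results of these data known. The data are chromatin immunoprecipitation with sequencing (ChIP-seq) of lilli-eGFP, a fusion of the Lilliputian protein to a green fluorescent protein at its C terminus, from transgenic flies stably expressing the fusion. Whole embryos of both sexes, 0 to 24 h old, gave 1 group of 3 biological replicates, whose chromatin was sonicated to 200 to 800 bp and precipitated with an antibody against GFP. All replicates carry the transgene, so no untagged or mock group stands beside them. Because whole embryos of mixed age were pooled, binding in fewer cells and weaker binding per cell cannot be told apart.

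The vacuolar ATPase (V-ATPase) is a rotary proton pump that acidifies lysosomes, endosomes and secretory vesicles, and in insect epithelia it also energises transport across the plasma membrane. Its V1 sector splits ATP in the cytoplasm and turns a shaft, and its V0 sector carries protons through the membrane. The pump also takes part in the sensing of amino acids at the lysosome by the TOR kinase. In Drosophila many subunits have several gene copies, of which some are broadly expressed and others are known mainly from single tissues such as the male germ line or the gut. Lilliputian is a scaffold of the super elongation complex, which helps RNA polymerase II to leave the promoter.

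A gene is called bound here where the summit of a peak in the authors' optimal list lay within 500 bp of any of its transcription start sites (TSSs). Of the 33 V-ATPase genes, 16 (48.5%) were bound, against 31.3% of all protein-coding genes. The 16 were Vha68-1, Vha68-2, Vha55, Vha44, Vha36-1, Vha26, Vha13 and VhaSFD of the V1 sector, Vha100-2, Vha16-1, Vha16-5, VhaPPA1-1, VhaM9.7-a, VhaM9.7-b and VhaM9.7-c of the V0 sector, and the accessory gene VhaAC45. In the whole list of 30000 peaks pooled over the replicates, 22 members (66.7%) had a promoter peak, against 55.0% of all protein-coding genes. That leaves 6 with a lower-ranked peak and 11 with none. By its label this list holds background as well as peaks, so a lower-ranked entry need not be binding. The replicate lists are as long, and their low entries need the same caution. That of Vha100-1 in replicate 3 had a −log10 q of 0.09. Taken singly, and cut to as many peaks as the optimal list, replicates 1, 2 and 3 gave 14, 16 and 14 bound members (42.4%, 48.5% and 42.4%), against 30.5%, 31.7% and 30.1% of all protein-coding genes. Among the strongest peaks of all 3 replicates 11 members (33.3%) had a promoter peak, against 24.6% of all protein-coding genes. These shares are descriptions, with no test of the list.

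The calls were unevenly spread over the copies. Of the 18 genes outside the copies numbered -2 to -5, 13 (72.2%) were bound, against 31.3% of all protein-coding genes. Replicates 1, 2 and 3 taken singly gave 11, 13 and 11 of these 18, against 30.5%, 31.7% and 30.1% of all protein-coding genes. Of the 15 numbered copies 3 (20.0%) were bound, Vha100-2, Vha68-2 and Vha16-5, and the same number in each replicate taken singly. The suffix is a poor guide to use, because Vha68-2 and Vha100-2 are broadly expressed and the letter-suffixed VhaM9.7 copies fall outside it. Grouped instead by a set of 17 genes named from general knowledge of broad expression, which was not measured here, 14 of 17 (82.4%) were bound. Of the other 16, 2 (12.5%) were bound, Vha16-5 and VhaM9.7-c, beside the same 31.3% of all protein-coding genes. The set was written with earlier results of these data known, and the contrast was not tested. Of the 17, Vha100-1, Vha14-1 and VhaAC39-1 had no optimal promoter peak.

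**Figure D1:**
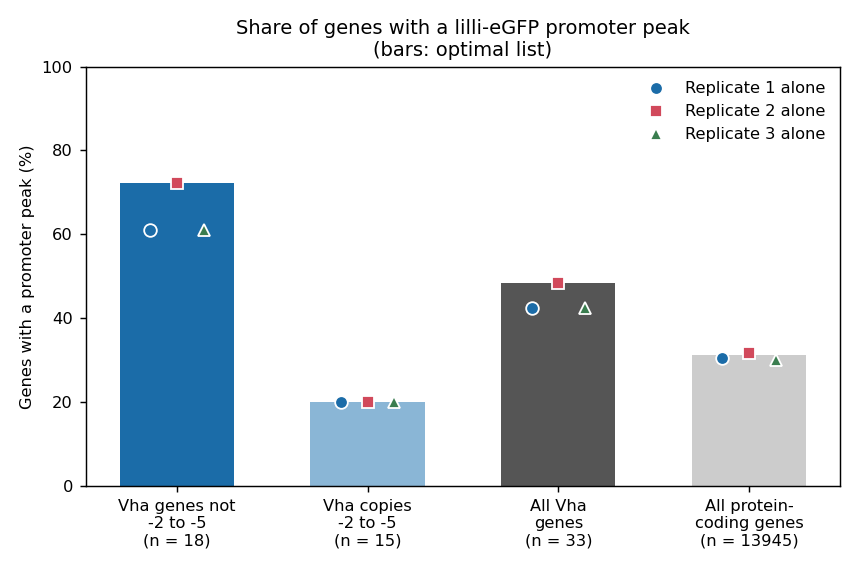
Percentage of genes with a promoter peak, with bars for the optimal list and points for the strongest peaks of each replicate alone. The bars stand at 72.2% for the 18 Vha genes not numbered -2 to -5, 20.0% for the 15 numbered copies, 48.5% for all 33 and 31.3% for all 13945 protein-coding genes.

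By subunit, 12 of the 14 subunit types had at least 1 bound gene. The 5 subunits that have a single gene, B, C, E, G and H of the V1 sector, were all bound. The 2 types with no bound gene were F, a part of the rotor shaft encoded by Vha14-1 and Vha14-2, and d, which joins the proton ring to the shaft and is encoded by VhaAC39-1 and VhaAC39-2. A type with more copies has more chances to be counted, and the members are not replicates of each other. Of the 13 V1 genes 8 (61.5%) were bound, of the 18 V0 genes 7 (38.9%), and of the 2 accessory genes 1, beside 31.3% of all protein-coding genes.

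Subunit A, which binds and splits ATP, and subunit B, its nucleotide-binding partner, form the catalytic head. Vha68-1, a gene for subunit A, had an optimal peak at chr2L:13004059-13004349 with a signal of 473 and rank 960 of 6970, its summit 88 bp upstream of the TSS. Signal is the authors' value for a peak and ranks peaks only within a list, so replicates are set side by side by rank. Vha68-1 ranked 1224, 937 and 856 in replicates 1, 2 and 3. Vha68-2, another gene for the same subunit on the same arm, had a weaker peak, chr2L:12973957-12974392, with signal 190.3 and rank 3745. It ranked 5000, 3194 and 2930 in replicates 1, 2 and 3, below Vha68-1 in every replicate with no overlap of the ranks. In replicate 1 its best summit lay near another of its 5 start sites. Vha68-3, the copy that begins just downstream of Vha68-2, had no promoter peak in any list.

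Vha55, the only gene for subunit B, had a peak at chr3R:12627744-12627996 with signal 417 and rank 1186, and its summit lay 45 bp upstream of a TSS. It ranked 1136, 1805 and 968 in replicates 1, 2 and 3. VhaSFD encodes subunit H, which regulates the coupling of the sectors, and had signal 174 and rank 4193 at chr2L:16727685-16728120. VhaSFD ranked 3848, 4052 and 7092 in replicates 1, 2 and 3, so replicate 3 placed it just below the strongest 6970.

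The sequences on the summits of these 4 genes are given so that the promoters of the catalytic head and of its regulator can be compared. All are from the RefSeq dm6 assembly, 5′ to 3′ on the strand of the gene, and hold no annotated exon. A single capital marks the summit base, and a run of 8 capitals marks a core promoter word named after the sequences. They span chr2L:13004155-13004235 on the minus strand, chr2L:12974135-12974215 on the plus strand, chr3R:12627834-12627914 on the minus strand and chr2L:16727841-16727965 on the minus strand.
Vha68-1: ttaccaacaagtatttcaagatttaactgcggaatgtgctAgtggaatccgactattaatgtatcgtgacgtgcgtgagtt
Vha68-2: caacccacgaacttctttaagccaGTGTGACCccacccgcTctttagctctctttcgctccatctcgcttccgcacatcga
Vha55: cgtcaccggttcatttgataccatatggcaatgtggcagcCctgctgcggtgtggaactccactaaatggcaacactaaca
VhaSFD: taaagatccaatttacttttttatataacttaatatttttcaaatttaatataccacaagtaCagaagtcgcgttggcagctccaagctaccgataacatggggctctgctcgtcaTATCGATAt
The run in Vha68-2 is the core promoter word GGTCACAC, read on the other strand, and that in VhaSFD is the DNA replication-related element TATCGATA. Left in lower case are GAGAG, which Vha68-2 holds 7 to 11 bp downstream of the summit on the other strand, and TATAAA, which VhaSFD holds on the other strand 38 to 43 bp upstream.

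The stalks and the shaft hold the V1 head and carry its rotation. Vha36-1 encodes subunit D of the shaft and had a peak at chr2R:15541279-15541505 with signal 446 and rank 1053, with ranks 922, 1154 and 1262 in replicates 1, 2 and 3. Its copies Vha36-2 and Vha36-3 had no pooled promoter peak, and Vha36-2 had a single low one in replicate 3 at rank 22153. Vha44 encodes subunit C, which clamps the sectors together, and had signal 295 and rank 2053 at chr2R:16336504-16336939. Its ranks of 2310, 2207 and 2254 in replicates 1, 2 and 3 lay close together.

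Vha26 (subunit E) and Vha13 (subunit G) form the outer stalks. Vha26 had signal 215 and rank 3222 at chr3R:5591323-5591758, and ranked 7962, 2429 and 2694 in replicates 1, 2 and 3, so replicate 1 stood apart from the others. Vha13 had signal 223 and rank 3062 at chr3R:19644427-19644568, and ranked 5565, 1910 and 3038, again lowest in replicate 1. For subunit F of the shaft, Vha14-1 had a pooled promoter peak of rank 18159 and peaks of rank 17119 and 22502 in replicates 2 and 3, with none in replicate 1, and Vha14-2 had none in any list. A strong optimal peak of rank 237 does lie beside Vha14-1, but 822 bp from its TSS and 306 bp from that of the next gene, Gmppa.

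**Figure D2:**
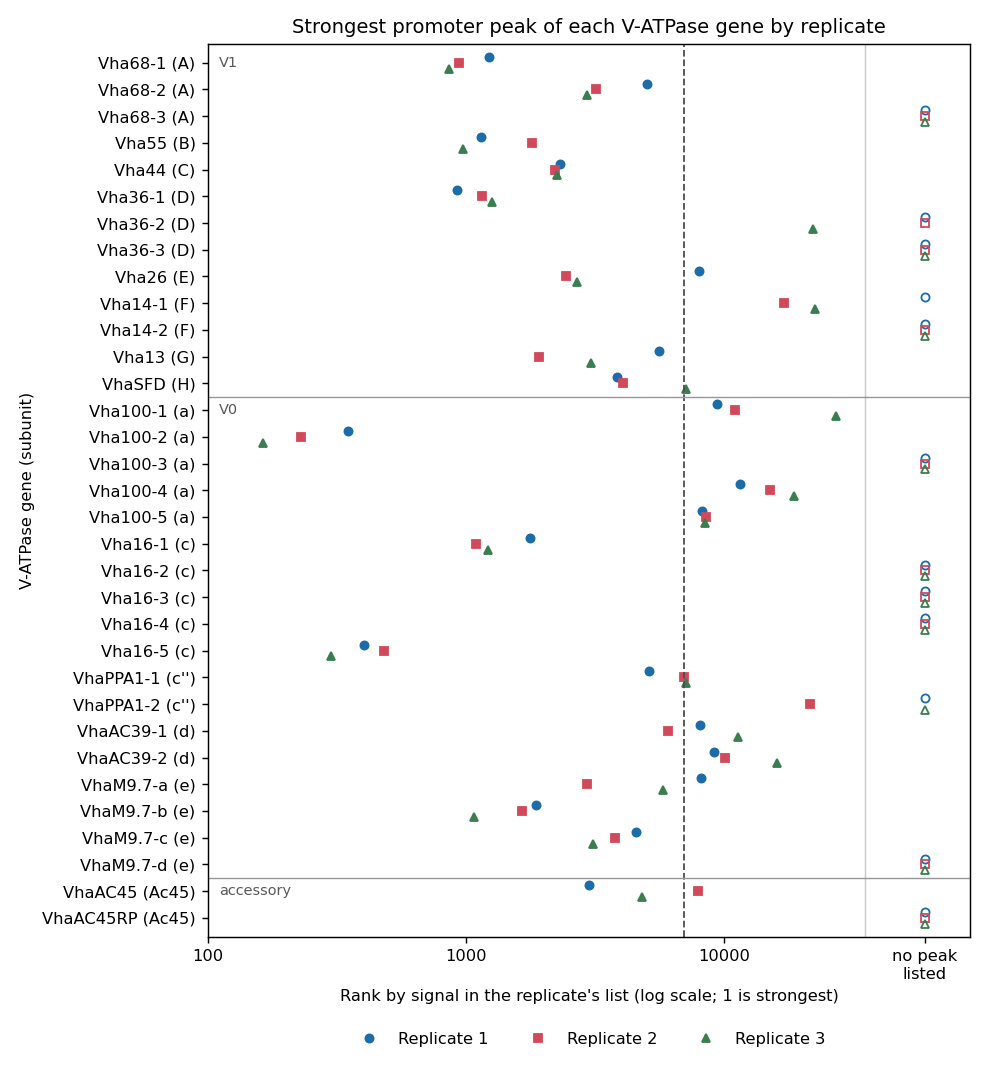
Rank of the strongest promoter peak of each V-ATPase gene in replicates 1, 2 and 3 (log scale, 1 is the strongest peak), with genes grouped by sector and the subunit in brackets. The dashed line marks rank 6970, the length of the optimal list, and open symbols mark a gene with no promoter peak in that replicate's list of 30000. Vha100-2 and Vha16-5 rank within the first 500 in all 3 replicates.

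In the membrane, subunit a guides protons to and from the rotating ring. Vha100-2 had the strongest promoter peak of the family, chr3R:18397021-18397521, with signal 966 and rank 217. It ranked 347, 229 and 163 in replicates 1, 2 and 3. Its summit lay 278 bp upstream of the downstream one of its 2 start sites, inside Vti1b, a vesicle SNARE gene, 211 bp past the Vti1b TSS. The tandem neighbour Vha100-4 had a pooled rank of 13923 and ranks of 11477, 15002 and 18617 in replicates 1, 2 and 3. Vha100-1, known for its role at synapses, had a pooled rank of 10699 and ranks of 9348, 11020 and 27139. Vha100-3 had no promoter peak in any list.

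Vha100-5 came nearest to the optimal list without being in it. Its pooled peak had signal 109.9 and rank 7129, where the weakest optimal peak has signal 112. It ranked 8193, 8466 and 8429 in replicates 1, 2 and 3, below the strongest 6970 in each. The bound member with the lowest rank was VhaPPA1-1, with signal 139 and rank 5472.

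Subunits c and c'' form the ring of proteolipids that carries protons. Vha16-1 had signal 359 and rank 1511 at chr2R:6632795-6633387. Its summit lay 8 bp downstream of a TSS, the only bound member with its optimal summit downstream. The replicates did not share that side: the Vha16-1 summit lay 45 bp downstream in replicate 1, and 104 and 9 bp upstream in replicates 2 and 3. It ranked 1772, 1092 and 1217 in replicates 1, 2 and 3. Vha16-5 had signal 756 and rank 389 at chr2L:10737167-10737484, and ranked 401, 482 and 298. Its summit, however, was 297 bp from the Vha16-5 TSS and 5 bp from that of the divergent zinc finger gene CG12299. Vha16-2, Vha16-3 and Vha16-4 had no promoter peak in any list.

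VhaPPA1-1, for subunit c'', had its peak at chr3R:14903952-14904387 and ranked 5107, 6959 and 7136 in replicates 1, 2 and 3, on both sides of rank 6970. Its tandem copy VhaPPA1-2 had no pooled promoter peak and a single one of rank 21546 in replicate 2.

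The remaining membrane subunits were less even. Of the genes for the small subunit e, VhaM9.7-b had signal 374 and rank 1409 at chr3L:21539394-21539624 and ranked 1860, 1640 and 1072 in replicates 1, 2 and 3. VhaM9.7-c had signal 197 and rank 3609 at chr3L:4186697-4187132 and ranked 4564, 3758 and 3106. VhaM9.7-a had signal 166 and rank 4475 at chr3L:4262310-4262745, and its replicate ranks of 8137, 2939 and 5809 were spread widely. VhaM9.7-d had no promoter peak in any list.

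For subunit d, VhaAC39-1 had a pooled peak of signal 108 and rank 7254, with its summit 186 bp downstream of the TSS. It ranked 8083, 6047 and 11266 in replicates 1, 2 and 3, and so was among the strongest 6970 in replicate 2 alone. VhaAC39-2 ranked 10053 in the pooled list and 9127, 10075 and 16059 in replicates 1, 2 and 3, below the strongest 6970 in each. Of the accessory genes, VhaAC45 had signal 157 and rank 4753 at chr2R:9207274-9207709 and ranked 2989, 7923 and 4786, and VhaAC45RP had no promoter peak in any list.

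Of the 16 bound members, 11 had a promoter peak among the strongest of all 3 replicates and 5 in 2 of the 3 (Vha26, VhaSFD, VhaPPA1-1, VhaM9.7-a and VhaAC45). Over all protein-coding genes, bound or not, 24.6% had such a peak in all 3 replicates. The same split was not counted over the bound protein-coding genes alone. The median signal of the bound members was 259, against 247 over all 4371 bound protein-coding genes. The median rank was 2557.5, against 2651.0. In the strongest 697 optimal peaks there were 2 members, Vha100-2 and Vha16-5, while 16.0% of all bound genes had their strongest promoter peak there. Reads of related copies can be told apart at these promoters, since all 31-base words there were unique in the genome for 32 members, and 97.9% of them for Vha36-1.

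For 10 of the 16 bound members (62.5%) another protein-coding TSS, in each case divergent, lay within 500 bp of the summit, a share near the 56.5% of all bound protein-coding genes. In 7 of the 10 the summit was nearer to the other gene's TSS, against 48.2% of all bound genes with such a shared summit. These pairs were Vha100-2 with Vti1b, Vha16-5 with CG12299, Vha26 with the splicing factor gene noi, Vha36-1 with CG8187, Vha44 with Hmgs, which encodes HMG-CoA synthase, VhaM9.7-a with CG11586, and VhaM9.7-b with COX8, a subunit of cytochrome c oxidase. In the other 3 the V-ATPase gene was nearer: Vha55 with the sorting nexin gene Snx3, Vha68-1 with mTor, the gene of the TOR kinase, and VhaAC45 with Gnptab. The start sites of Vha68-1 and mTor are 373 bp apart, and the summit lay 88 bp from the first and 285 bp from the second. The peak lists cannot assign such a summit to one gene of the pair. By a count chosen after the values were seen, which gives each summit only to the gene with the nearest TSS, 9 V-ATPase genes (of 33) were bound, against 23.3% of all protein-coding genes. That is 9 of the 16 bound members, against 74.3% of all bound genes. By this count the V-ATPase share lay much closer to that of all protein-coding genes than by the main count.

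**Figure D3:**
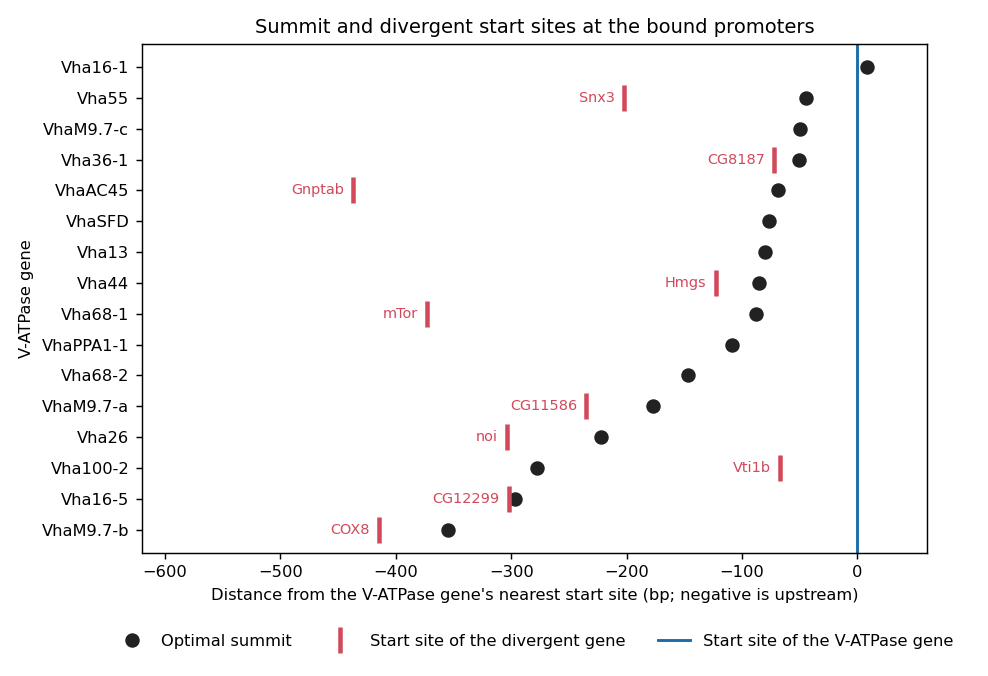
Distance of the optimal summit (black) from the nearest start site of each bound V-ATPase gene (blue line at 0 bp, negative is upstream), with the start sites of divergent protein-coding genes within 500 bp of the summit in red. The summits run from 355 bp upstream at VhaM9.7-b to 8 bp downstream at Vha16-1, and 15 of 16 are upstream.

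Binding moved with this layout in the V-ATPase genes and in all genes. Of the 14 members with a divergent protein-coding TSS within 1000 bp upstream, 11 (78.6%) were bound, against 53.7% of all genes so placed. Of the 19 members without one, 5 (26.3%) were bound, against 18.6% of all such genes. A divergent TSS was present for 42.4% of members and 36.2% of all protein-coding genes. The median number of annotated start sites was 1.0 in members and in all protein-coding genes. Of the 25 members with 1 annotated TSS, 11 (44.0%) were bound, against 25.0% of all protein-coding genes with 1 TSS. The part of the divergent layout in the V-ATPase count was not tested.

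Vha100-2 and Vha16-1 were the 2 of 33 members with an optimal summit in the gene over 500 bp from their own start sites, against 9.81% of all protein-coding genes. Each held 2 such summits, all in introns. In Vha100-2 the peaks chr3R:18393421-18393856 (signal 199, rank 3567) and chr3R:18398126-18398561 (signal 148, rank 5068) were found within 100 bp among the strongest of all 3 replicates. In Vha16-1 the stronger intron peak (signal 165, rank 4480) was found in all 3 replicates and the weaker one (signal 113, rank 6887) in 1. A further 6 members had an optimal summit within 1000 bp outside the gene and over 500 bp from their start sites. The same share over all protein-coding genes was not counted, so these 6 have no background beside them. Beside Vha14-1, Vha16-5 (rank 5505), Vha36-1 (rank 6794), Vha36-2 (rank 2202) and VhaAC39-2 (rank 5798) the summit lay nearest to the TSS of another gene. Beside VhaAC45RP (rank 6593) its own TSS was the nearest, 2133 bp away.

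The base composition under the summits varied widely among the members. In the 51 bp around the summit GC content averaged 45.1% ± 10.2 (SD over 16 peaks) in V-ATPase promoter peaks and 37.3% ± 11.6 (SD) over all 3126 promoter peaks that are the strongest of a gene. At 1000 bp on either side it was 42.4% in the V-ATPase peaks, against 45.2%. The members ran from 29.4% at VhaAC45 to 60.8% at Vha16-5 and Vha44, and 12 of the 16 lay above the median of all promoter peaks, 37.3%. Peaks are not replicates, so these spreads describe the peaks and carry no test.

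**Figure D4:**
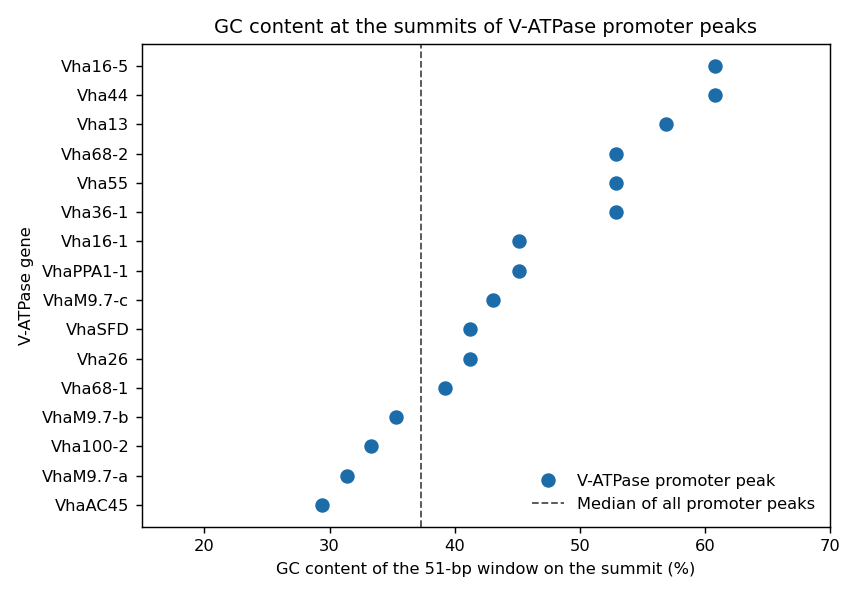
GC content of the 51 bp around the summit for each V-ATPase promoter peak (percent), with a dashed line at the median of all promoter peaks, 37.3%. VhaAC45, VhaM9.7-a, Vha100-2 and VhaM9.7-b lie below the line and the other 12 above it.

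In insects and vertebrates, factors of the MITF and TFEB family control V-ATPase and lysosome genes through an extended E-box, and in Drosophila the factor is Mitf. The palindrome TCACGTGA, which contains the E-box CACGTG, was searched on both strands within 100 bp of the summits. It was found at 2 of the 16 bound members, Vha44 and Vha16-1, and in 0.288% of the windows of all promoter peaks. Within 50 bp it was found at Vha44 alone, against 0.0960%, and within 150 bp at the same 2, against 0.352%. In Vha44 it began 37 bp from the summit, on the side of the gene and still upstream of the TSS. In Vha16-1 it began 84 bp from the summit, also on the side of the gene. The Vha16-1 summit itself lay 8 bp downstream of a TSS, so there the word lay inside the gene. CACGTG was found at the same 2 members, against 2.66% of all promoter peaks. In the 250 bp before to 50 bp after the first TSS, TCACGTGA was found at Vha44 alone of the 33 members, against 0.172% of all protein-coding genes. CACGTG stood there at Vha44, VhaAC45RP and VhaM9.7-d, of which the last 2 were not bound, against 4.24% of all protein-coding genes. A match in this search is not a binding site, and no match says only that the letters are not in the window.

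Within the same 100 bp, TATCGATA was found at 1 of the 16 (VhaSFD), against 10.8% of all promoter peaks, and GGTCACAC at 1 (Vha68-2), against 5.95%. CAGCTG was found at 3 (Vha36-1, Vha44 and VhaAC45), against 13.3%, and CATGTG at 2 (Vha55 and VhaAC45), against 6.62%. GAGAG was found at 4 (Vha100-2, Vha44, Vha68-2 and VhaAC45), against 18.8%, and TATAAA at 2 (Vha16-1 and VhaSFD), against 32.4%. These small counts move with the window. Within 50 bp CATGTG and TATCGATA were found at 0 members, against 3.68% and 5.79% of all promoter peaks. Within 150 bp CATGTG was found at 4, TATCGATA at 2 and TATAAA at 4, against 9.69%, 13.6% and 44.0%.

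Genes that work with the pump were described from a list of 19. Of these, 10 (52.6%) were bound, against 31.3% of all protein-coding genes. With each summit given only to the gene with the nearest TSS, 8 of the 19 were bound, against 23.3% of all protein-coding genes. Mitf itself was not bound, with a pooled promoter peak of rank 22300 and, among the replicates, a peak in replicate 2 alone at rank 12506. The gene mtd, of a protein family that binds the pump, had signal 785 and rank 360, and ranked 381, 328 and 347 in replicates 1, 2 and 3. Rbcn-3A, a rabconnectin needed for assembly, had signal 157 and rank 4777, and ranked 3607, 4428 and 11938 in replicates 1, 2 and 3. Rbcn-3B was not bound.

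Of 6 genes of the Rag GTPases and the Ragulator complex, which tie the pump to TOR at the lysosome, 4 (66.7%) were bound. The share of all protein-coding genes was 31.3%, and so short a list carries no test. Lamtor3 had signal 930.4 and rank 233, with ranks of 231, 183 and 356 in replicates 1, 2 and 3. RagA-B had signal 223 and rank 3065, Lamtor2 had signal 127 and rank 6050, and Lamtor4 had signal 115 and rank 6750. RagC-D was not bound, and Lamtor1 had no promoter peak in any list.

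Of 9 genes for lysosomal proteins 4 (44.4%) were bound by the same call, against 31.3% of all protein-coding genes. CtsB, for a cathepsin protease, had signal 247 and rank 2660, CtsL1, for another, had signal 191 and rank 3720, the cholesterol transporter gene Npc1a had signal 149 and rank 5027, and Lamp1 had signal 115 and rank 6763. The genes cathD, Npc2a, Gba1b, spin and Trpml were not bound. The transporter gene spin was nevertheless among the strongest of all 3 replicates, at ranks 4589, 4196 and 4177, while its pooled promoter peak ranked 11979.

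The F-type ATP synthase of mitochondria is the related rotary enzyme that makes ATP. Of its 15 genes with a symbol beginning with ATPsyn, 7 (46.7%) were bound, beside 16 of 33 V-ATPase genes (48.5%) and 31.3% of all protein-coding genes, with no test of the difference. The 8 not bound were ATPsynB, ATPsynD, ATPsynG, ATPsyndelta and all those with a symbol ending in L, ATPsynCF6L, ATPsynGL, ATPsynbetaL and ATPsynepsilonL. The ranks of the 7 bound genes ran from 1709 at ATPsynE to 4999 at ATPsyngamma, against 217 to 5472 in the V-ATPase genes. In the optimal list the summit lay upstream of the TSS in 3 of the 7, against 15 of 16 V-ATPase genes (93.8%) and 84.8% of all bound protein-coding genes. Close to a TSS the side differed between lists. The ATPsynCF6 summit lay at 16 bp in the optimal list and at -40 and -7 bp in replicates 1 and 2. In the other direction, that of ATPsyngamma lay at -29 bp in the optimal list and 1 bp in replicate 3. The median summit of the bound V-ATPase genes lay at -86.5 bp from the TSS, and that of all bound protein-coding genes at -109 bp.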

How the data were processed

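Per the file headers, meaning the text files beside the lists, peaks of each replicate were derived from its alignment and a control alignment, and thresholding on reproducibility between replicates (irreproducible discovery rate) then gave the optimal list. The sources used here name no aligner or peak caller. The signal in the deposited lists is the authors' value for each peak, made against the control, and gave the ranks. The deposited −log10 q-values set no call or rank, and the dm3 lists were not used. Without reads the depth per replicate is unknown.

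Positions are 1-based on dm6, with genes from Ensembl release 115 and sequence from the RefSeq dm6 assembly. For each gene the strongest peak with its summit within 500 bp of any TSS was taken. The 6970 optimal peaks were checked to be the 6970 pooled peaks of highest signal, so "strongest" peaks of a replicate are its first 6970. The search was tested on simulated data. Every member is named with its call, and values are given for members bound or among the strongest of a replicate; other members' ranks given here were added after they were seen. The set of broadly expressed genes, the subunit roles and the 19 genes that work with the pump were written from general knowledge. Members and lists were chosen with earlier results of these data known, so no list was tested. The replicates are biological per the labels. Alternatives varied the window, the list, the start sites, the replicates and the assignment to genes. Python 3.11.15, numpy 2.4.6, pandas 2.3.3 and matplotlib 3.10.9 were used.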

Additional observations from a re-analysis of the deposited data

How the results depend on the processing

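With the strongest 50% of optimal peaks, 10 of 33 V-ATPase genes and 8 of the 18 outside the numbered copies were bound, against 19.2% of all protein-coding genes. With each peak given to the nearest gene alone, an alternative chosen after the data were seen, the counts were 9 and 8, against 23.3%. The share of the 33 then lay much closer to that of all protein-coding genes than in the main count. The numbered copies came to 1 of 15 with a window of 250 bp (26.0% of all protein-coding genes), with the peak interval over a TSS (22.1%) and with the nearest gene alone (23.3%). With all pooled peaks, background included, they came to 6 of 15, a share below the 55.0% of all protein-coding genes. Leaving out each replicate in turn, which also makes a stricter set, gave 11 to 12 V-ATPase genes, 9 to 10 outside the numbered copies and 2 to 3 of the copies, against 24.3% to 25.5% of all protein-coding genes. Of the 19 genes that work with the pump it gave 6 to 7, with 6 without replicate 2. The other alternatives to these counts stayed within 1.5 times. No paired analysis was possible because there is 1 group. The cause of these differences was not tested. The lists hold no reads, so a gene without a peak may be bound below what this depth detects.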
